A study of Schizosaccharomyces pombe with 36 samples.

Results

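The large subunit of the cytosolic ribosome of the fission yeast Schizosaccharomyces pombe is built from ribosomal RNA and a set of proteins encoded by genes named rpl. Members were the counted S. pombe genes whose standard name is rpl followed by digits, which gave 76 of 7268 genes. The stalk protein genes (rpp) and the genes of mitochondrial ribosomal proteins were not included. By their names the 76 genes fell into 43 sets. Of these, 29 held 2 paralogs, 2 held 3 paralogs (rpl801, rpl802 and rpl803 for protein uL2, and rpl1601, rpl1602 and rpl1603 for uL13), and 12 were single genes. The annotated products were proteins of the 60S subunit, except that rpl44 is annotated by an L28e family domain and rpl701 as an RNase MRP subunit like L7.

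Ribosomal protein mRNAs are among the most abundant and long-lived mRNAs of a growing yeast cell, and their products are made in equal amounts for assembly. In animals these mRNAs carry a run of pyrimidines at the cap, the 5'TOP, which La-related protein 1 (LARP1) binds. When a uridine analogue is given to cells, a short-lived mRNA comes close to its final labelled share sooner than a long-lived one.

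Cells were wild type (WT, strain yAS99) or carried a knockout of slr1 (slr1-, strain yMAB001), the gene of the LARP1 homologue named in the study's title. Both were grown at 32C from single colonies taken from plates of YES, a rich medium, and both received 5 mM 4-thiouracil (4tU), which enters new RNA as 4-thiouridine. Of each genotype 3 cultures were sampled, and each culture gave 6 libraries. The first was made from RNA without selection (steady state), and the other five from RNA captured on streptavidin by its biotin-tagged 4tU at the labels 5, 20, 50, 105 and 125. The sources used here state no time unit for these labels, and no alleles beyond slr1. The p-values measure the spread between these cultures within a group, pooled over the groups of each fit. In fits over several fractions, libraries of the same culture count as separate although they come from the same cells. With a term for the culture (the culture as a block), the p-values measure the spread left within cultures.

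The 36 libraries held 921427 to 6517092 counts on S. pombe genes. In WT the slr1 transcript lay between 111 and 249 CPM over all libraries, where CPM are counts scaled to the library total with TMM factors and so are relative within a library. In the knockout it lay between 3.26 and 25.9 CPM, below each WT library. A second division of the cultures cut across genotype, here made by fly and human counts. Fly counts per human count at steady state were 0.990 to 1.07 in WT cultures 1 and 2 and knockout culture 2 (set A), and 1.85 to 2.15 in WT culture 3 and knockout cultures 1 and 3 (set B). The sources used here do not state what the human and fly RNA was for.

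The promoters of the members shared a sequence that the choice by name did not use. HomolD, a short element known from fission yeast ribosomal protein promoters, was searched as CAGTCACA on both strands in the 250 bases before the annotated transcript start, in RefSeq's ASM294v3 assembly. It was found in 48 of 74 members with an annotated start (64.9%), against 129 of all 4511 protein-coding genes with one (2.86%). Among small subunit protein genes (rps) it was found in 32 of 53. HomolE, searched as ACCCTACC, was found in 18 of the 74 members (24.3%) and in 1.60% of protein-coding genes. In 12 members both were found.

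The promoters below are those of the 5 members lowest and the 5 members highest in WT labelled 5 against labelled 125, the latter each with a paralog, because the results turn on these genes. They are the 100 bases before the annotated start, read 5′ to 3′ on the strand of the gene from RefSeq's ASM294v3. Capitals mark HomolD, HomolE and the HomolD letters with G in the last place (CAGTCACG), on either strand.

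The 5 lowest members lay at chrI:5402247-5402346 (minus strand), chrI:1097280-1097379 (minus), chrI:2853932-2854031 (minus), chrIII:1640916-1641015 (plus) and chrII:1513752-1513851 (minus), in this order.
rpl4101: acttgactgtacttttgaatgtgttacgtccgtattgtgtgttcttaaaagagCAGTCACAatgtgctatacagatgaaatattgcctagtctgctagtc
rpl3802: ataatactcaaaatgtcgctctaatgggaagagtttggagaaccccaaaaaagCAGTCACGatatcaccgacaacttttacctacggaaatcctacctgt
rpl4102: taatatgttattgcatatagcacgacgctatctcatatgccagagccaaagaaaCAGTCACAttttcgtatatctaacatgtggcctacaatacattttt
rpl39: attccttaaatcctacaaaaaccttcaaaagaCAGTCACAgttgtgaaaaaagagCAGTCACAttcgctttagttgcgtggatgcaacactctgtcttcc
rpl4302: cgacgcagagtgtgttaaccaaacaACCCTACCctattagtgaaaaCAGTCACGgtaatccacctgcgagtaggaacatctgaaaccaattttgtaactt

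The 5 highest members and their paralogs lay at chrII:3443154-3443253 (plus), chrI:4097226-4097325 (plus), chrIII:1321248-1321347 (plus), chrI:4093799-4093898 (minus), chrII:2143020-2143119 (plus), chrII:3637674-3637773 (minus), chrII:3060449-3060548 (plus), chrIII:612580-612679 (minus), chrI:4919028-4919127 (minus) and chrI:1755985-1756084 (plus), in this order.
rpl1603: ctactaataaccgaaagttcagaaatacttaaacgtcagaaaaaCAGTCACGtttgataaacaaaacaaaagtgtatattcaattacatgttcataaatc
rpl1602: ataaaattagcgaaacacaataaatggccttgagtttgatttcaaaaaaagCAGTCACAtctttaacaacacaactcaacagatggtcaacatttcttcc
rpl3402: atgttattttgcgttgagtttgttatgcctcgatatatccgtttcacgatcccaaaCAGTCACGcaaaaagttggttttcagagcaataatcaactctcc
rpl3401: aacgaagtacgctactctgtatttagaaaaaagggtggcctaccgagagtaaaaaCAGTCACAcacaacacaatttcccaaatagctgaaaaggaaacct
rpl401: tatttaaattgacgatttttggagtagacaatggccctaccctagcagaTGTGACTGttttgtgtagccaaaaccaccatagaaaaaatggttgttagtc
rpl402: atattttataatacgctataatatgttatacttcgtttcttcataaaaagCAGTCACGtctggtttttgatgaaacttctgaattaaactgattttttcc
rpl102: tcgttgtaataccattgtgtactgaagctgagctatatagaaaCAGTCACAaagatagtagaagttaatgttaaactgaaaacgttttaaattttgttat
rpl101: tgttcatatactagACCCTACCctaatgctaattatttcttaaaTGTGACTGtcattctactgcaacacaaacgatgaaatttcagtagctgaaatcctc
rpl302: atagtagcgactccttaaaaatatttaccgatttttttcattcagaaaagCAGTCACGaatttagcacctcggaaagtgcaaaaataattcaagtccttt
rpl301: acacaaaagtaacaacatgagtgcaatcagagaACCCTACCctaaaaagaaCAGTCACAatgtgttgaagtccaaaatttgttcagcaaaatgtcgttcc

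Each of these 15 windows held either CAGTCACA or CAGTCACG. The second form was searched after these sequences had been seen. Over the 250 bases it was present in 17 of the 74 members (23.0%) and in 56 of 4511 protein-coding genes (1.24%), and 64 members (86.5%) held at least either form, against 4.03% of protein-coding genes. In the 48 members with the A form, the last base of the copy nearest to the start lay 9 to 60 bases before it, with a median of 42. In the 16 members with the G form only, it lay 37 to 59 bases before it, with a median of 44.5. The 10 members with neither form were rpl1002, rpl1102, rpl1601, rpl2401, rpl2402, rpl2501, rpl2502, rpl2702, rpl31 and rpl3601. These matches are descriptions of letters in the window and not evidence of a bound site.

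The pyrimidine run that defines 5'TOP mRNAs in animals was not at the annotated starts. None of the 74 members had 5 or more C or T at the annotated start, as against 20 of 4511 protein-coding genes. A run of 5 or more C or T in the 20 bases before that start was present in 38 of 74 members (51.4%) and in 2086 of 4511 protein-coding genes (46.2%). The annotated starts may differ from the starts used in these cells, which were not analysed here.

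The members took up a large share of the steady-state counts and a small share of the newest labelled RNA. In WT their sum was 12.4 ± 1.83% (SD, n = 3) of S. pombe counts at steady state. It was 3.30 ± 0.422% in labelled 5, 5.42 ± 0.471% in labelled 20, 7.60 ± 1.13% in labelled 50, 8.66 ± 1.55% in labelled 105 and 8.65 ± 1.88% in labelled 125. The share thus lay lower at labelled 5 than at each later time point, and in no labelled group did its mean reach that of steady state. In the knockout the same sums were 12.5 ± 1.11% at steady state and 3.15 ± 0.604%, 4.15 ± 1.14%, 6.89 ± 1.31%, 8.80 ± 0.982% and 8.65 ± 0.433% from labelled 5 to labelled 125.

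Between labelled 5 and labelled 125, the ribosomal protein mRNAs of the large subunit were lower at labelled 5 in both genotypes. Of the 76 members, 63 were lower and 0 higher in WT by edgeR's quasi-likelihood test with Benjamini-Hochberg adjustment over 5823 genes, at a threshold of 0.05. Over all genes tested 6.68% were called lower, 2.08% higher and 8.76% in either direction. In the knockout 60 were lower and 0 higher, beside 6.3% lower, 2.18% higher and 8.48% in either direction over all genes. The members' median log2 fold change was −1.80 in WT and −1.81 in the knockout, where the median of all genes was 0.08 in each. With the culture as a block, 74 members were lower in each genotype (20.2% and 17.5% of all genes were then lower). The change lay below 0 in 6 of 6 cultures in 75 members, and in 3 of 6 in rpl1603. Scaled to human counts, which moved the median of all genes to −0.95 in WT and −0.64 in the knockout, 75 and 73 members were lower, with medians of −2.79 and −2.58, and 23.8% and 7.99% of all genes were lower. Without WT culture 3 the WT count was 44 (2.88% of all genes), and without knockout culture 3 the knockout count was 33 (1.63%).

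The other lists of the ribosome moved as follows in WT. Of 55 rps genes 44 were lower and 0 higher, with a median of −1.78. Of 10 rpp genes 6 were lower, with a median of −1.65. Of 60 measured factors of 60S assembly, whose products build the subunit but are not part of it, none passed in either direction, and their median was −0.04. In the knockout 45 rps genes, 7 rpp genes and 2 assembly factors were lower and 1 assembly factor was higher.

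The comparison with steady state gave the same direction. Labelled 5 lay below steady state in 70 of 76 members in WT and in 71 in the knockout, with medians of −2.31 and −2.22 and 0 members higher. Over all genes 11.2% were lower, 10.6% higher and 21.8% either in WT, and 13.2% lower, 13.5% higher and 26.7% either in the knockout. Labelled 125 lay below steady state in 2 members in WT (0.0859% of all genes lower, 0.481% higher, 0.567% either) and in 4 in the knockout (0.464% lower, 0.738% higher, 1.2% either), with medians of −0.50 and −0.49. Scaled to human counts these medians were −0.09 and 0.27, so that the sign turned in the knockout, where the median of all genes moved to 0.79 (0.35 in WT). Those counts became 31 (5.19% of all genes) and 36 (10.3%) with the culture as a block. Values below 0 in labelled 125 against steady state were held by 76 members in WT and by 76 in the knockout.

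**Figure D1:**
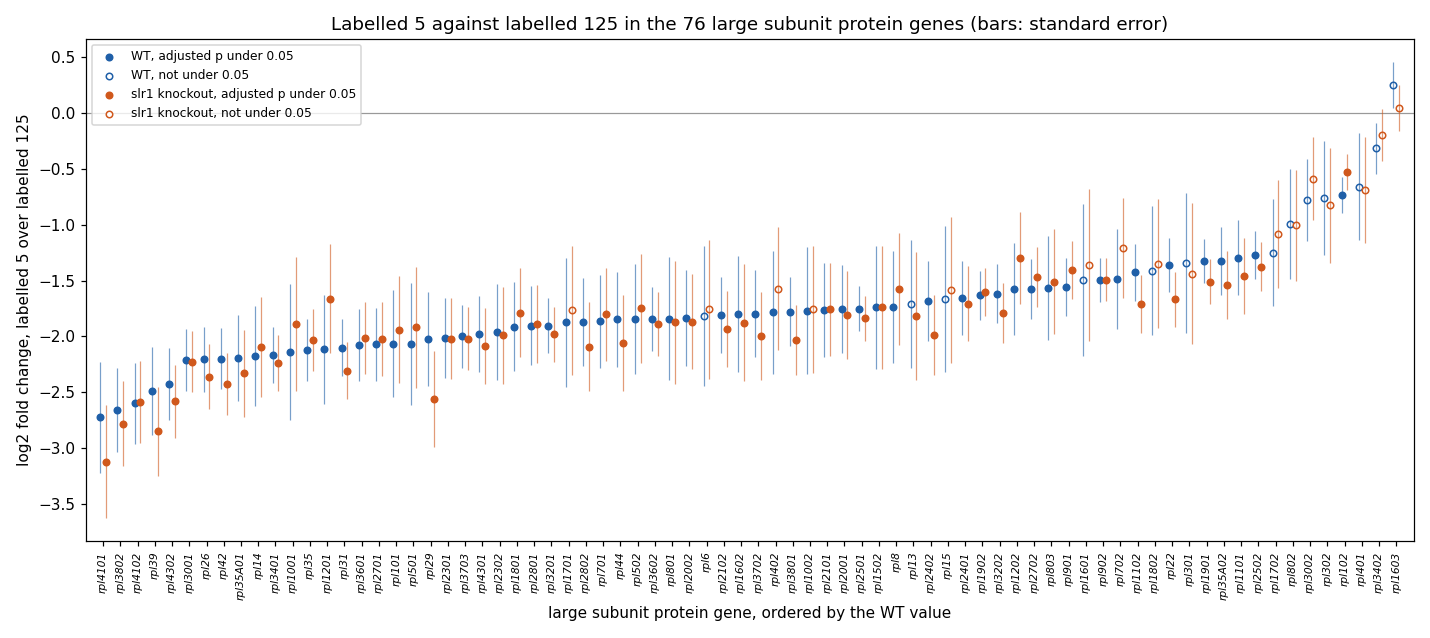
The log2 fold change of labelled 5 over labelled 125 is shown for each of the 76 members, ordered by WT, with its standard error, in WT (blue) and the knockout (orange). Filled points passed the test and open points did not; rpl4101 stands at the low end with −2.72 in WT and −3.12 in the knockout, and rpl1603 at the high end with 0.25 and 0.05.

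The 5 members lowest at labelled 5 encode small proteins, of 25 to 94 residues. The lowest was rpl4101 (SPAC3G6.13c), 1 of 2 genes of eL41, a short helical peptide at the interface between the subunits. Its WT levels were 146, 213 and 222 CPM in labelled 5 of cultures 1, 2 and 3, and 927, 1283 and 1624 CPM in labelled 125. In the knockout they were 218, 164 and 246 CPM in labelled 5, and 1988, 852 and 2622 CPM in labelled 125. The groups did not overlap in either genotype, and the highest labelled 5 library lay below the lowest labelled 125 library. The log2 fold change was −2.72 (SE 0.50, edgeR adjusted p = 4.89e-04) in WT and −3.12 (SE 0.51, adjusted p = 1.18e-04) in the knockout.

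The second gene of eL41, rpl4102 (SPAC3F10.18c), encodes the same 25 residues and was expressed at a lower level. Its WT levels were 44.5, 25.1 and 37.9 CPM in labelled 5 and 263, 199 and 193 CPM in labelled 125. The knockout had 27.7, 26.8 and 34.1 CPM, and 175, 148 and 209 CPM. The change of −2.60 in WT (SE 0.36, edgeR adjusted p = 2.08e-05) and −2.59 in the knockout (SE 0.37) was close to that of rpl4101.

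The protein eL38 comes from rpl3801 and rpl3802, and of these rpl3802 (SPAC30D11.12) was among the 5 lowest. It was at 120, 169 and 154 CPM in labelled 5 and at 696, 1085 and 1014 CPM in labelled 125 in WT, a change of −2.66 (SE 0.37, edgeR adjusted p = 2.14e-05). Its paralog rpl3801 changed by −1.78 (SE 0.31), from 533, 594 and 561 CPM in labelled 125 to 142, 185 and 164 CPM in labelled 5. At labelled 5 the paralogs were thus at like levels, whereas at labelled 125 rpl3802 was the more abundant in each WT culture.

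The single gene rpl39 (SPCC663.04) encodes a small protein that lines the exit tunnel of the nascent peptide. It was at 134, 176 and 163 CPM in labelled 5 and at 712, 998 and 941 CPM in labelled 125 in WT. The change was −2.49 (SE 0.39, edgeR adjusted p = 8.66e-05) in WT and −2.85 (SE 0.40) in the knockout. The gene of the zinc-binding protein eL43 named rpl4302 (SPBC83.02c) changed by −2.43 (SE 0.32, edgeR adjusted p = 1.13e-05) in WT and by −2.58 (SE 0.33) in the knockout. The annotated transcripts of rpl4101, rpl4102 and rpl4302 overlap chl1, ltv1 and ucp8 on the other strand. These 5 members were called in each of 6 fits without 1 culture, in both genotypes.

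At the other end stood genes that are the minor copies of their sets, though rpl4102 and rpl4302 among the 5 lowest were minor copies too. The member with the highest value was rpl1603 (SPBC2G2.05), 1 of 3 genes of uL13. It was at 135, 170 and 172 CPM in labelled 5, at 141, 146 and 113 CPM in labelled 125 and at 159, 170 and 162 CPM at steady state in WT. The groups overlapped, and the log2 fold change of 0.25 (SE 0.21, edgeR adjusted p = 0.503) did not pass. In the knockout the change was 0.05 (SE 0.21). The annotated rpl1603 transcript, at 2640 nucleotides for a coding length of 594, overlaps apl1 on the other strand. Since the strand setting of the counting is not given, reads of the neighbouring genes cannot be told apart, and the value is uncertain.

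The next was rpl3402 (SPCC1322.15), 1 of 2 genes of eL34. It was at 120, 193 and 184 CPM in labelled 5 and at 210, 215 and 193 CPM in labelled 125 in WT, where culture 2 of labelled 5 and culture 3 of labelled 125 met at the same level. In the knockout it was at 138, 151 and 154 CPM in labelled 5 and at 155, 157 and 195 CPM in labelled 125, without overlap. The change was −0.32 (SE 0.23, edgeR adjusted p = 0.439) in WT and −0.20 (SE 0.23) in the knockout. Its value was below 0 in 6 of 6 cultures. No gene overlapping it was annotated, and each 50-base stretch of its transcript was unique in the genome.

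For uL4, which reaches into the wall of the exit tunnel, rpl401 (SPBC1711.06) changed less than rpl402. In WT rpl401 was at 256, 496 and 322 CPM in labelled 5 and at 465, 779 and 453 CPM in labelled 125. The change of −0.66 (SE 0.48, edgeR adjusted p = 0.434) passed with the culture as a block (adjusted p = 0.00216). Culture 2 had the highest level in both fractions, so the groups overlapped. For uL1, the protein of the mobile L1 stalk at the tRNA exit, rpl102 (SPBC30D10.18c) was at 214, 246 and 249 CPM in labelled 5 and at 435, 388 and 354 CPM in labelled 125 in WT. The groups did not overlap, and the change of −0.73 (SE 0.16, edgeR adjusted p = 0.00360) passed in WT, and in 5 of 6 fits without 1 culture (adjusted p = 0.0627 without WT culture 1). In the knockout it was −0.53 (SE 0.16, edgeR adjusted p = 0.0417) and passed in 2 of those 6 fits. Leaving out WT culture 2, WT culture 3, knockout culture 1 or knockout culture 3 gave edgeR adjusted p of 0.0515, 0.0798, 0.333 and 0.408 in the knockout. The annotated transcript overlaps a noncoding RNA on the other strand.

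The fifth was rpl302 (SPAPB8E5.06c), of uL3, a protein close to the peptidyl transferase centre. Its change was −0.76 (SE 0.51, edgeR adjusted p = 0.393) in WT and passed with the culture as a block (adjusted p = 3.57e-05). Only 43.9% of its 50-base stretches and 33.3% of those of rpl301 were unique in the genome, so that reads may be shared or lost between the pair. The same limit holds for rpl1201 (14.3%), rpl1202 (29.5%), rpl1001 (63.9%) and rpl1002 (58.7%). Beyond these 5, rpl3002 of eL30 (−0.59, SE 0.37, edgeR adjusted p = 0.357) lay more than 3 scaled median absolute deviations above the members' median in the knockout, and rpl39 and rpl4101 lay as far below it.

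**Figure D2:**
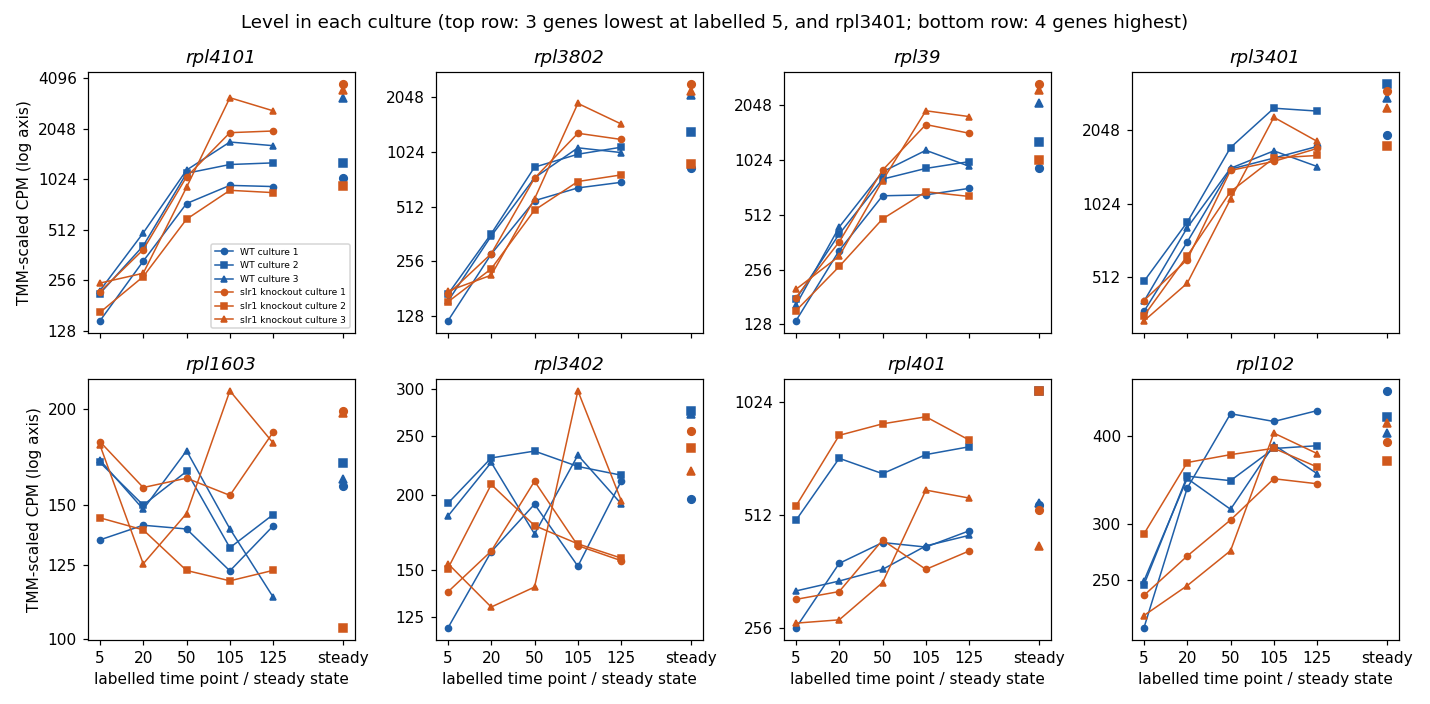
TMM-scaled CPM (log axis) is plotted for 8 members over the labelled time points, joined by lines, and at steady state, with 1 symbol per culture and blue for WT and orange for the knockout. In the top row the levels at labelled 5 lie below those at labelled 125 in each culture. In the bottom row rpl1603 goes either way between cultures. There rpl3402 lies lower at labelled 5 in each culture, with a log2 difference from −0.058 to −0.81.

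Members were not chosen by these values, and their order was much the same in both genotypes, which share no library. Over the 76 members, the WT and knockout log2 fold changes of labelled 5 over 125 had a Spearman rho of 0.909 and a Pearson r of 0.950, with the same sign in 76 of 76 genes. The genes share length, base composition and the libraries within a genotype, so this is a description.

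Level and change went together across members. Per kilobase of coding length, WT steady-state levels ran from 275 ± 9.55 CPM (SD, n = 3) in rpl1603 to 23345 ± 14738 CPM in rpl4101, with a median of 3879 CPM. The lowest 3 were rpl1603, rpl1201 of uL11 (409 ± 161 CPM per kb) and rpl3002 (493 ± 89.8 CPM per kb). The place of rpl1201 is uncertain, since few of its 50-base stretches are unique and reads aligned to several places were not counted to genes. The highest 3 were rpl4101, rpl26 of uL24 (12676 ± 4301 CPM per kb) and rpl29 of eL29 (10951 ± 4044 CPM per kb). The first place of rpl4101 may rest on the division by coding length, since reads can fall on the whole transcript. Its coding length is 78 nucleotides in an annotated transcript of 346. In rpl26 these are 381 and 458, and in rpl29 186 and 331. Against the level in the other genotype's steady-state libraries, the change at labelled 5 over 125 had a Spearman rho of −0.72 in WT and −0.76 in the knockout (76 members). The higher the level of a member per coding length, the lower it tended to be at labelled 5. Depth and length are shared by both measures.

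Length went with the change too. Over the members, log2 fold change and coding length had a Spearman rho of 0.49 in WT and 0.64 in the knockout, and the number of uridines in the annotated transcript gave 0.62 and 0.75. Among 4755 other protein-coding genes coding length gave 0.26 and 0.32. In WT the members' median was −2.66 for the 2 genes of up to 150 nucleotides and −2.01 for the 10 genes of 151 to 300. It was −1.05 for the 4 genes of 901 to 1200 nucleotides. Other protein-coding genes of the same lengths had medians of −0.44, −0.31 and 0.08, over 5, 166 and 789 genes. The 5 genes had quartiles of −1.31 and 0.02. After a curve of change on coding length, fitted over the other genes, had been subtracted, the members' median was −1.68 in WT and −1.70 in the knockout. A transcript with few uridines has fewer places for the label, and what this adds to the values of the shortest members was not tested.

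**Figure D3:**
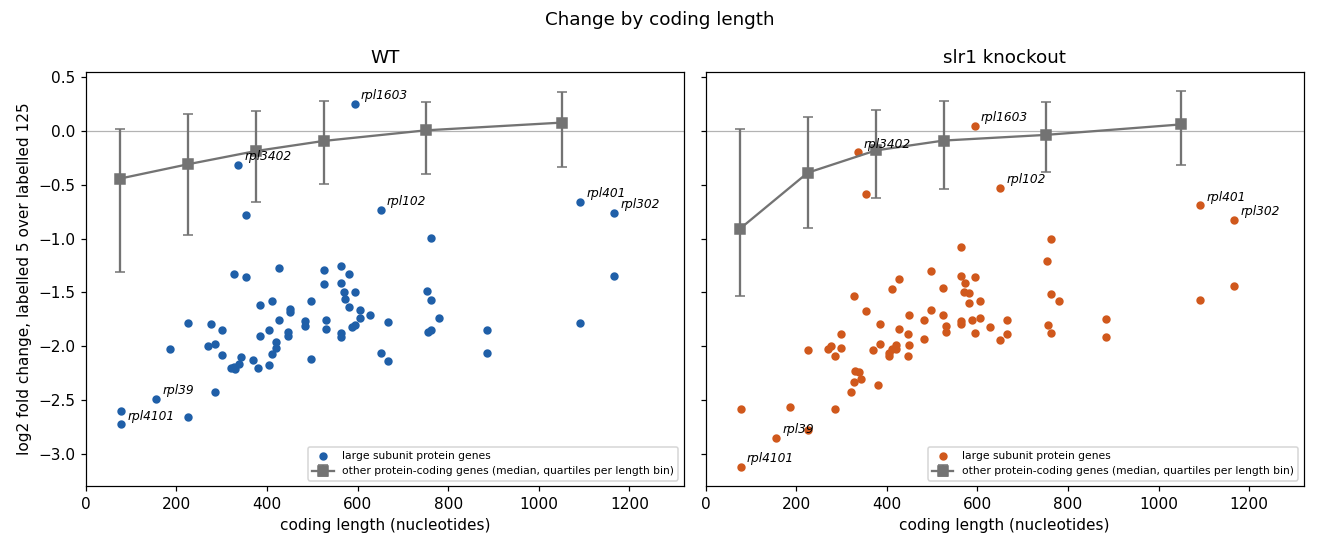
The log2 fold change of labelled 5 over labelled 125 is plotted against coding length in nucleotides for the 76 members (coloured points) and for other protein-coding genes (grey squares, median and quartiles of each length bin) in WT and the knockout. The 2 members of up to 150 nucleotides have a median of −2.66 in WT, against −0.44 for the 5 grey genes of that length. Highest of the coloured points are rpl1603 (0.25) and rpl3402 (−0.32).

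Other features of the members split the values less. In WT the median was −1.85 in the 48 members with CAGTCACA, −1.69 in the 16 with CAGTCACG only and −1.67 in the 10 with neither. Their median steady-state levels were 3935, 3571 and 3744 CPM per kb of coding length. Of the 5 lowest members 3 held the A form, and of the 5 highest 2 did. The 37 members with an intron had a median of −1.91 and the 39 without had −1.76. The 12 single genes had −2.06 and the 64 with a paralog −1.78. These splits were not tested, and the groups also differ in coding length (median 354 nucleotides with an intron, 570 without).

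Paralogs encode nearly the same protein, and their mRNAs differed in level and in labelling. The 35 pairs within the sets had 81.2 to 100% identical residues, and 8 pairs were identical. At WT steady state the median absolute log2 ratio between paralogs was 0.85, and 16 pairs differed by more than 1. The direction was the same in both genotypes in 33 of 35 pairs. The largest difference in ratio between genotypes was 0.52, for rpl3702 and rpl3703 of eL37.

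The most unequal pairs were those of eL30, eL34 and uL1. For eL30, a protein that in budding yeast binds its own transcript and blocks its splicing, rpl3001 was at 1519, 2518 and 2516 CPM and rpl3002 at 177, 205 and 142 CPM at WT steady state, a log2 ratio of 3.62 ± 0.52 (SD, n = 3). For eL34, rpl3401 was at 1951, 3182 and 2784 CPM and rpl3402 at 196, 275 and 272 CPM, a ratio of 3.40 ± 0.12. For uL1, rpl101 was at 2260, 6379 and 2794 CPM and rpl102 at 464, 426 and 405 CPM, a ratio of 2.99 ± 0.83. In each of these pairs the lowest library of the major gene lay above the highest library of the minor gene. The spread in the uL1 pair came with rpl101, whose level in culture 2 stood above those of cultures 1 and 3, while rpl102 varied little.

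Next came the pairs rpl4101 and rpl4102 with 2.18 ± 0.51, rpl1602 and rpl1603 with 1.96 ± 0.55, and rpl401 and rpl402 with −1.84 ± 0.15. Here rpl402 was the major gene of uL4, and the A form of HomolD stood in the promoter of rpl401 and the G form in that of rpl402. In the other pairs printed above, the major gene held the A form and its minor paralog the G form (rpl1602 and rpl1603, eL34, uL3), or both held the A form (uL1, eL41). Pairs not printed above went both ways at WT steady state. The gene with the G form was the major one for rpl3802, rpl3703, rpl3202, rpl1901 and rpl35A01, each against a paralog with the A form. The gene with the A form was the major one for rpl1502 and rpl4301, and for rpl801 and rpl803 against rpl802.

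The minor paralog was the less depleted in newest RNA in most pairs. The pair ratio at labelled 5 minus that at labelled 125 had the same sign in 6 of 6 cultures in 24 of 35 pairs. In 29 of 35 pairs the member less abundant at steady state, as judged from the knockout, was the one higher at labelled 5 over 125 in WT, and judging from WT gave 29 in the knockout. The 6 pairs within the sets of 3 genes share members, and a ratio of 2 genes from 1 library shares its depth.

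The largest shift in WT was that of rpl1602 and rpl1603, and in the knockout that of rpl3401 and rpl3402 (−2.04 ± 0.12). The ratio of rpl1602 to rpl1603 moved by −1.61, −2.02 and −2.49 in WT cultures 1, 2 and 3 and by −1.63, −1.90 and −2.36 in the knockout cultures. At labelled 125 rpl1602 was the more abundant, with a mean log2 ratio of 1.81 in WT, and at labelled 5 the genes were close to equal, with −0.23. The pair rpl1601 and rpl1603 moved by −1.69 ± 0.28 in WT, and rpl1601 and rpl1602 by 0.35 ± 0.21. Within uL13, then, rpl1603 was the gene that stood apart from its paralogs.

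For eL34 the ratio moved by −1.44, −2.17 and −1.77 in WT and by −1.90, −2.13 and −2.10 in the knockout. The major gene rpl3401 fell from 1758, 2457 and 1454 CPM in labelled 125 to 369, 490 and 406 CPM in labelled 5 in WT (log2 fold change −2.16, SE 0.25, edgeR adjusted p = 5.99e-06). Set beside the values of rpl3402 above, the minor gene made up a larger part of the eL34 transcripts in newest RNA than at steady state. For eL30 the ratio moved by −1.33, −1.49 and −1.70 in WT and by −1.64, −1.63 and −1.39 in the knockout. The annotated rpl3001 transcript overlaps wis4 on the other strand.

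Where the minor gene is named before the major one, the ratio starts below 0. Of pairs with a mean ratio below 0 at WT steady state, some moved up in 6 of 6 cultures. They were rpl401 and rpl402, rpl3801 and rpl3802, rpl802 and rpl803, and rpl1601 and rpl1602. Others, rpl1201 and rpl1202, rpl2701 and rpl2702, and rpl3201 and rpl3202, moved down in 6 of 6. Of pairs with a ratio above 0, rpl4301 and rpl4302, and rpl1901 and rpl1902, moved up in 6 of 6 cultures. Their WT steady-state ratios were 0.70 ± 0.24 and 0.38 ± 0.12, so the minor genes rpl4302 and rpl1902 were the more depleted. For rpl2701 and rpl2702 the steady-state ratio was −0.034 ± 0.16 in WT and 0.18 ± 0.12 in the knockout, so neither was clearly minor. The same holds for rpl1601 and rpl1602, with −0.17 ± 0.45 in WT. The ratio of rpl401 to rpl402 moved by 0.80, 1.32 and 0.99 in WT and by 1.12, 0.90 and 0.67 in the knockout. The ratio of rpl3801 to rpl3802 moved by 0.86 ± 0.20 in WT (SD, n = 3) and by 0.74 ± 0.055 in the knockout. The 3 genes of uL2, a protein at the heart of the large subunit, encode identical proteins. Among them rpl802 was the least abundant at steady state and the least low at labelled 5, with −0.99 (SE 0.50, edgeR adjusted p = 0.229; with the culture as a block adjusted p = 4.96e-05). The pair rpl4101 and rpl4102 did not shift in 1 direction, with 2 cultures up and 4 down.

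**Figure D4:**
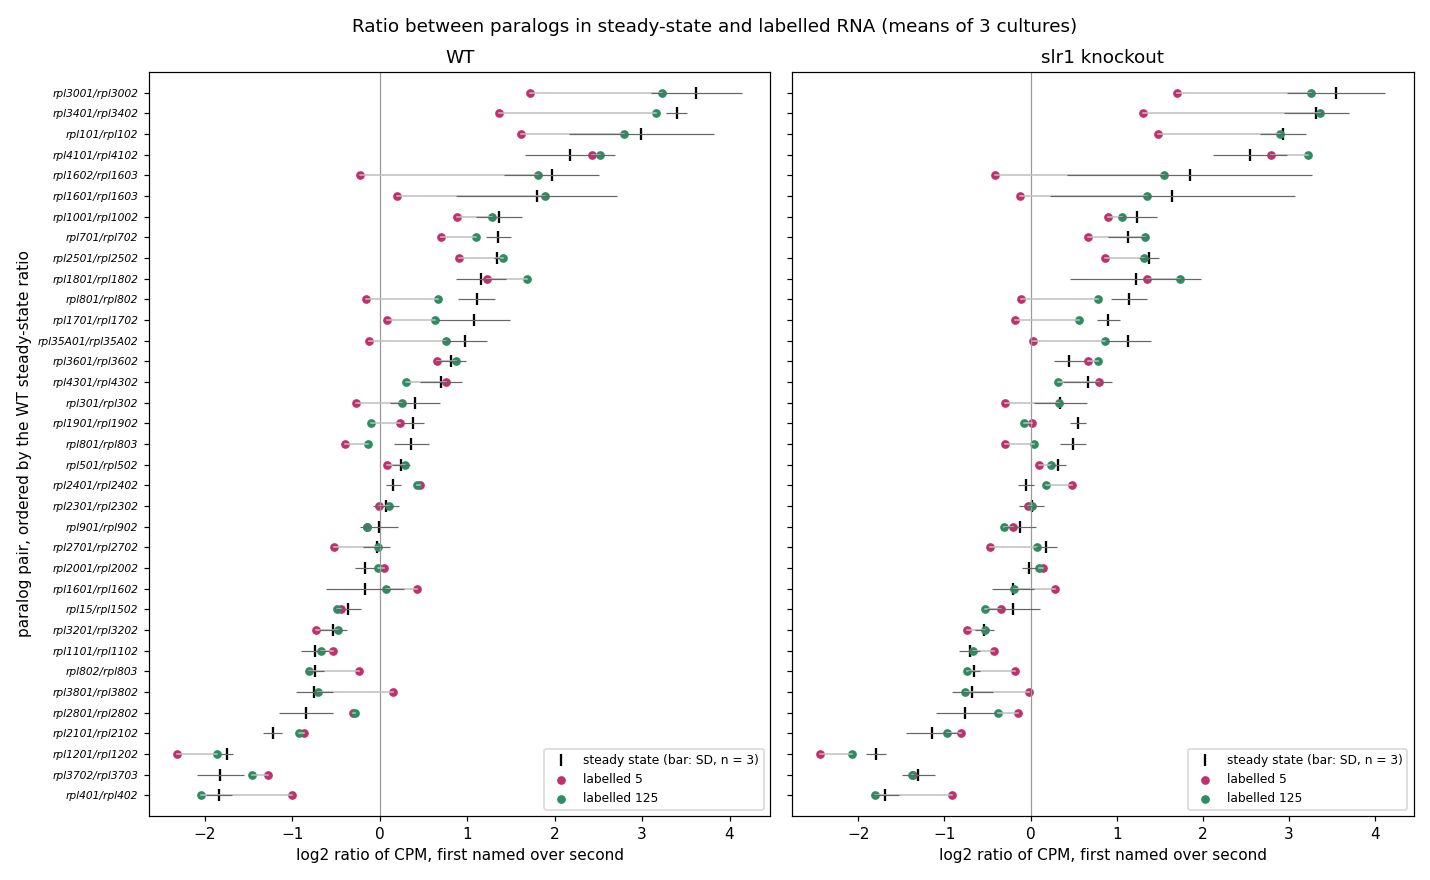
Mean log2 CPM ratios of the 35 paralog pairs are shown at steady state (black tick, SD over 3 cultures), labelled 5 (pink) and labelled 125 (green), in WT and the knockout. The pairs with the 3 largest steady-state ratios, such as 3.62 for rpl3001 and rpl3002 in WT, have their labelled 5 point nearer to 0 than steady state in both genotypes, while rpl4101 and rpl4102 do not (2.18 at steady state and 2.43 at labelled 5 in WT).

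The study's title asks what Slr1 does to mRNAs of this kind. No member passed the test between knockout and WT at steady state, at any of the 5 labelled time points, or for the slope on log2 of the time point, by edgeR with 76 members tested in each. DESeq2 called 0 as well. Over all genes edgeR called 1 of 5371 (0.0186%) at steady state, 1 of 5812 (0.0172%) at each labelled time point and 0 for the slope. At an unadjusted p under 0.05 there were 0 members at steady state (0.335% of all genes), 0 at labelled 5 (1.07%), 6 at labelled 20 (2.8%) and 1 at labelled 50 (1.27%). There were 0 at labelled 105 (1.7%), at labelled 125 (0.774%) and for the slope (0.568%). Each of these shares of all genes lay below what a threshold of 0.05 gives where no gene differs. The lack of calls is therefore not evidence that slr1 has no effect on the members. DESeq2 had 15 at labelled 20 (2.89% of all genes), 1 at labelled 50 (1.36%) and 0 elsewhere.

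The members' median log2 fold change, knockout over WT, was −0.04 at steady state, −0.05 in labelled 5, −0.43 in labelled 20, −0.13 in labelled 50, 0.09 in labelled 105 and 0.00 in labelled 125. Medians of all genes lay between −0.01 and 0.01. Scaled to human counts, the members' medians from labelled 5 to 125 were 0.42, −0.42, 0.20, −0.24 and 0.18, and those of all genes 0.46, 0.11, 0.28, −0.35 and 0.13, so that the sign turned at labelled 5, 50 and 105. At labelled 20 all 76 members had a value below 0, and in 19 each knockout library lay below each WT library, against 3.63% of all genes; at labelled 50 this held for 4 (2.84%). The rps genes had a median of −0.40 there, and the assembly factors −0.01. Within set A the members' median at labelled 20 was 0.01 and within set B it was −0.68, where a single WT culture stands against 2 of the knockout. With the culture set as a covariate it was −0.40.

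Singly, rpl4102 and rpl2501 had the smallest p at labelled 20. The level of rpl4102 was 98.6, 71.3 and 60.4 CPM in WT and 55.0, 45.6 and 37.3 CPM in the knockout, so that the groups did not overlap. The log2 fold change was −0.72 (SE 0.25, edgeR adjusted p = 0.999). At labelled 50 it was 202, 172 and 157 CPM in WT and 116, 101 and 97.6 CPM in the knockout, again without overlap, with a change of −0.74 (SE 0.24, edgeR adjusted p = 1, unadjusted p = 0.00580). At labelled 5 and at steady state the groups overlapped, with changes of −0.29 and 0.28. The annotated rpl4102 transcript overlaps ltv1 on the other strand. For rpl2501 of uL23, which sits at the tunnel exit, levels at labelled 20 were 746, 869 and 890 CPM in WT and 542, 635 and 488 CPM in the knockout (−0.57, SE 0.19, edgeR adjusted p = 0.999).

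In the other comparisons the members with the smallest p had overlapping groups, except that overlap was not assessed for the slope. They were rpl3702 (0.50, SE 0.38) and rpl39 (0.55, SE 0.48) at steady state, and rpl4102 and rpl1901 of eL19 (−0.17, SE 0.18) in labelled 5. At labelled 50 the second was rpl35 of uL29 (−0.41, SE 0.26). At labelled 105 they were rpl3801 (0.56, SE 0.28) and rpl39 (0.66, SE 0.34), and at labelled 125 rpl1603 (0.33, SE 0.20) and rpl39 (0.57, SE 0.34). For the slope they were rpl1102 of uL5 (0.11, SE 0.06) and rpl29 (0.16, SE 0.10). The edgeR adjusted p of each of these was 1 after rounding.

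Some members stood more than 3 scaled median absolute deviations from the members' median without passing the test. At steady state this was rpl4101 (0.61, SE 0.61), at labelled 20 rpl1603 (−0.03, SE 0.20) and rpl401 (0.00, SE 0.45), which lay above the shared shift, and at labelled 50 rpl1602 (0.31, SE 0.47) above it and rpl4102 below it. For the slope, given per doubling of the time point, it was rpl29.

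At steady state the difference between genotypes varied with length and with culture set. The 12 members with up to 300 coding nucleotides had a median of 0.35 and the 19 with more than 600 had −0.23, and rho with coding length was −0.72 over the 76 members, −0.62 over 55 rps genes and −0.12 over 4607 other protein-coding genes. The relation was noticed after the data had been seen. It was 0.04 without WT culture 2, 0.30 within set A, −0.46 within set B and 0.10 with the culture set as a covariate. Without WT culture 1 or 3 it was −0.65 and −0.82. Without knockout culture 1, 2 or 3 it was −0.37, −0.84 and −0.27. In single libraries, the mean log2 CPM of the short members minus that of the long ones was −0.60, −1.25 and −1.22 in the set A cultures WT 1, WT 2 and knockout 2. It was 0.44, 0.50 and 0.76 in the set B cultures WT 3, knockout 1 and knockout 3. Each set B library lay above each set A library, whichever the genotype, and set B holds 2 of the 3 knockout cultures. Reads aligned to several places, as a share of all lines of a library's count table, were also higher in set A (37.3 to 48.0%) than in set B (16.0 to 32.1%) at steady state; their part in the result was not tested.

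**Figure D5:**
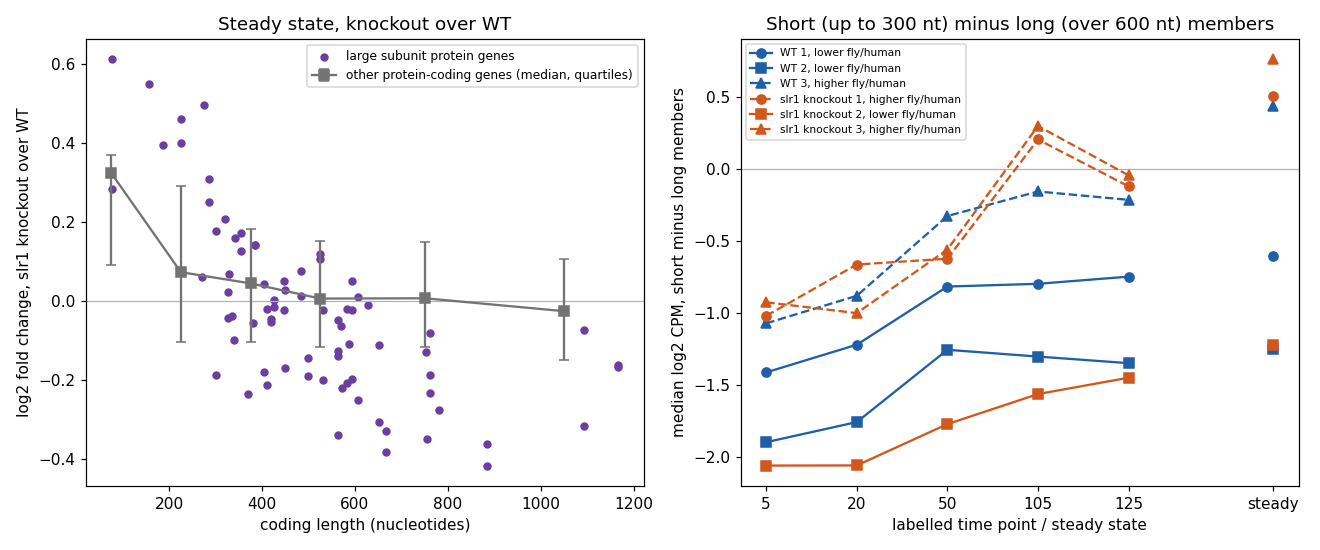
The left panel plots the steady-state log2 fold change of knockout over WT against coding length in nucleotides, for the 76 members (purple) and for other protein-coding genes (grey, median and quartiles per length bin). The right panel plots the mean log2 CPM of short members minus that of long members in each library, although its axis label reads median. At steady state the 3 set B cultures (dashed lines, 0.44 to 0.76) lie above the 3 set A cultures (solid lines, −1.25 to −0.60).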

How the data were processed

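Read counts per gene were deposited by the authors for 36 libraries; per the labels these were stranded mRNA libraries of RNA from acid phenol extraction. The submitters' processing notes name HTSeq 0.6.1p2 beside R 3.5.2, and also STAR 2.5.2a and Trimmomatic 0.36. The sources used here do not state the builds, the annotation or whether counting used strand. The 5 summary lines were left out of library sizes. Reads without a feature came to 3.62 to 8.49% of a library's whole count table, summary lines included, and reads aligned to several places to 16.0 to 48.0% at steady state against 5.82 to 10.4% after pull-down. Counts on human (28006) and fly (17104) genes were used as totals only.

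Counts of S. pombe genes (921427 to 6517092 per library) were tested with edgeR 4.0.16 (R 4.3.3, limma 3.58.1) by the quasi-likelihood test with TMM factors, a filter at 10 counts, and p-values adjusted by Benjamini-Hochberg over all genes tested (threshold 0.05). Genotypes were compared at steady state over 6 libraries, in labelled RNA over all 30 labelled libraries, and fractions over all 36. CPM ratios of paralogs used a prior count of 2. The scripts were tested on simulated data. Libraries of 1 culture came from the same cells, and their deviations from the group means correlated (lowest r 0.149), so the culture block is given beside results it changes. Alternatives were DESeq2 1.42.0, no filter, scaling to human counts, a prior count of 0.5, blocks, leaving out each culture and, added after the data had been seen, the culture sets.

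The members and lists were chosen with earlier results of these data known. The named genes were the 5 lowest and 5 highest members in WT labelled 5 against 125, the 2 smallest p per genotype comparison, the 6 most unequal and 4 most shifted paralog pairs, the 3 highest and lowest levels, and members over 3 scaled median absolute deviations from the median. Of 7268 gene identifiers, 6846 matched RefSeq's ASM294v3.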

Additional observations from a re-analysis of the deposited data

How the results depend on the processing

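The number of members lower depended on the fit mainly where few passed. Labelled 125 against steady state gave 2 in WT (0.0859% of all genes), and 31 with the replicate block by culture (5.19%). WT gave 4 with DESeq2, 4 with no filter, 0 scaled to human counts, 0 within set A and 0 to 2 without a culture. The knockout gave 4 (0.464% of all genes), and 36 with the block (10.3%). It gave 8 with DESeq2, 0 scaled to human counts, 21 within set B and 0 to 7 without a culture. Within set A, labelled 5 against 125 gave 15 in WT, and labelled 5 against steady state 36. Set A holds 1 knockout culture and set B 1 WT culture, so counts for these are left out. Without a culture, knockout labelled 5 against 125 gave 33 to 64, where 1.63% of all genes were lower in the fit with 33. For the other fits in this paragraph the share of all genes is not given. Those counts show only how the number of members moved with the fit. The causes were not tested.

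Some values changed sign, and not all of them were near 0. Those of rpl39, rpl4101 and rpl3801 between genotypes, given above, lay well above 0. In labelled 5 against 125, rpl1603 became −0.76 in WT and −0.62 in the knockout scaled to human counts, −0.0083 in the knockout within set B, and −0.025 to 0.14 without a culture. In labelled 5 against steady state it became 0.0062 in WT within set B, and in the knockout −0.073 with DESeq2, −0.00018 scaled to human counts, −0.0099 with no filter, −0.19 within set B and down to −0.13 and up to 0.12 without a culture. Between genotypes, set A gave −0.094 for rpl39 and −0.30 for rpl4101 at steady state (−0.037 with the set as covariate), −0.18 for rpl3801 and −0.17 for rpl39 at labelled 105, −0.20 for rpl1603 and −0.39 for rpl39 at labelled 125, and −0.0014 for the slope of rpl1102. Scaling to human counts gave 0.16 for rpl4102 and 0.28 for rpl1901 at labelled 5, and at labelled 20 0.091 for rpl1603 and 0.0061 for rpl401. At labelled 20, rpl401 was 0.61 within set A and 0.14 with the set as covariate; without a culture it ran from −0.71 to 0.39 and rpl1603 from −0.14 to 0.042. At labelled 50, rpl1602 ran from −0.30 to 0.60 without a culture.

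Replicate numbers are shared between genotypes by number only: same-numbered cultures correlated negatively for replicate 1 and positively for replicate 3, and with the replicate block 0 members were called in each genotype comparison, as without it; at an unadjusted p under 0.05 the block gave 39 members at labelled 20 (8.24% of all genes) in place of 6. Of the other recomputed values, 150 summary values and 623 values of single genes kept their direction and side of the threshold. Among the values of single genes, 30 reversed direction.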
